A study of Mus musculus with 15 samples.

Results

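The γ-crystallin genes were examined as a family of 8 genes, Cryga, Crygb, Crygc, Crygd, Cryge, Crygf, Crygs and Crygn, of the 22342 protein-coding genes on chromosomes 1 to 19 and X of the mouse annotation (GENCODE vM1, genome build mm9). They were chosen by name, and the regions called by ChIP-seq were read within each gene body plus 20 kb on each side, called the window here. Cryga, Crygb, Crygc, Crygd and Cryge lie next to each other on chromosome 1 and were also read as 1 unit. The 9 lists of regions came from 3 sources. H3K4me2 was mapped in lenses of newborn CD-1 mice at P1 (postnatal day 1). Pax6, RNA polymerase II (Pol2), H3K4me1, H3K4me2 and H3K4me3 were mapped in αTN4 cells carrying a control shRNA, and H3K4me1, H3K4me2 and H3K4me3 in αTN4 cells carrying a Pax6 shRNA (Pax6 KD). αTN4 cells derive from mouse lens epithelium and carry the SV40 T antigen. Both αTN4 populations were infected with lentivirus and kept under puromycin as stable lines, so the control cells share the transformation, the infection and the selection with the Pax6 KD cells. How far Pax6 fell in the Pax6 KD cells was not analysed here. Each list stands for 1 library. A difference between lists therefore has no replicate error and no test, and the depth of the libraries is unknown because the lists hold called regions only.

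γ-crystallins are small, stable proteins of the lens. They fill the cytoplasm of lens fiber cells at high concentration and contribute to the transparency and refraction of the lens, and mutations in several of them cause congenital cataract. Cryga to Crygf are expressed mainly in fiber cells, which form when lens epithelial cells stop dividing and elongate, and their activation is known to depend on transcription factors such as Maf, Sox1 and Prox1. Crygs is the γS-crystallin of the lens cortex, and Crygn is a more distant relative. H3K4me3 marks active promoters, H3K4me1 marks enhancers, and H3K4me2 is found at both kinds of element. Pax6, a paired-domain and homeodomain transcription factor, is required for lens formation.

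On chromosome 1, in the order of the genome and all on the minus strand, Cryge lies from 65095128 to 65097723, Crygd from 65108446 to 65110026, Crygc from 65118099 to 65120263, Crygb from 65126804 to 65128862 and Cryga from 65146963 to 65149947. Crygf lies apart from them on the plus strand, from 65973096 to 65974881. Crygs lies on chromosome 16 from 22805276 to 22811483 and Crygn on chromosome 5 from 24256821 to 24263826, both on the minus strand. The chromosome 1 genes are closely similar to each other. In the coding sequences of the annotation, identity among Cryga to Crygf ran from 79.96% to 98.1% over 15 pairs, with a median of 83.2%, whereas pairs with Crygs or Crygn ran from 58.5% to 64.1%. Cryge and Crygf were the closest pair, at 98.1% over 525 aligned coding bases and 95.3% over the 150 bases before their starts. These stretches are printed for the genes that differ in H3K4me2 below, from mm9, 5′ to 3′ on the strand of the gene. Capitals mark words on that strand. The words TATATA and also TTTGTG were found afterwards as the longest that all 6 chromosome 1 genes share, and GGCCCCTTT as the longest that at least 5 share. The TATA box word TATAAA was marked as well.
Cryga (chr1:65149948-65150097, minus strand): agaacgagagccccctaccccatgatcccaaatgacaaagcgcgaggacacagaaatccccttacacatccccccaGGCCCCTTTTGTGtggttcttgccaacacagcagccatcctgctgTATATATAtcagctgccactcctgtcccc
Crygb (chr1:65128863-65129012, minus strand): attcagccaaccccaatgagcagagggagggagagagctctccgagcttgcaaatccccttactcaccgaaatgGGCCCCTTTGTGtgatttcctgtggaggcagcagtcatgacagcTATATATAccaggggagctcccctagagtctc
Crygd (chr1:65110027-65110176, minus strand): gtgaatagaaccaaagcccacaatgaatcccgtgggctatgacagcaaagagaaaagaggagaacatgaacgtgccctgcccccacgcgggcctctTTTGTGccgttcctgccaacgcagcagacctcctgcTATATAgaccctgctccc
Cryge (chr1:65097724-65097873, minus strand): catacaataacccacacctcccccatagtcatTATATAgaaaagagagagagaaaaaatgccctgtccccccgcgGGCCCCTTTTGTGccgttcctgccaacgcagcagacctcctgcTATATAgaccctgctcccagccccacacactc
Crygf (chr1:65972946-65973095, plus strand): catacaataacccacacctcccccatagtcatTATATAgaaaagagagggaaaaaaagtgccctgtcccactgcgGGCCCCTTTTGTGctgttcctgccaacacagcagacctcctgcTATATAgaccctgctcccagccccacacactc
Crygs (chr16:22811484-22811633, minus strand): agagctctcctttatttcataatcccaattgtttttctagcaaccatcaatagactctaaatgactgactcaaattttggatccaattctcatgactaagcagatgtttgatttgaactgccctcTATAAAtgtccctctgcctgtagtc
Crygn (chr5:24263827-24263976, minus strand): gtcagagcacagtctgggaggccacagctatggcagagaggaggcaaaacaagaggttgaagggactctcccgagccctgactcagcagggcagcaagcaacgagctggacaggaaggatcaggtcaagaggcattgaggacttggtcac

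The upstream stretch of Crygc is part of the 5′ UTR of its longer transcript and is not printed; relative to the start of the shorter transcript, it held GGCCCCTTT at -82, TTTGTG at -75 and TATATA at -40. The TATATA nearest to the start began between -40 and -18 in all 6 chromosome 1 genes, and TTTGTG between -75 and -54. Of all 22337 promoters with complete sequence, 3.14% held TATATA, 3.83% held TTTGTG and 0.219% held GGCCCCTTT on the same strand in the same 150 bases. GGCCCCTTT was found in Cryga, Crygb, Crygc, Cryge and Crygf, but not in Crygd, and these words were picked from the members' own sequences, so the shares serve as description. Crygs had TATAAA at -25 instead, and Crygn had none of the 4 words in its 150 bases.

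Binding words of lens regulators were searched on both strands from 250 bases before to 50 bases after the outermost start. The Maf half-site TGCTGA was found in 4 of 8 genes (Cryga, Crygc, Crygs and Crygn) against 17.7% of all promoters. The Sox words CTTTGT and CATTGT were found in 3 genes (Cryga, Crygb and Crygn) and in 2 (Crygd and Crygs), against 17.4% and 10.6% of all promoters, and the former shares letters with TTTGTG above. The AP-1 word TGANTCA was found in 2 genes (Crygs and Crygn) against 6.80%. TCACGC, a core of the Pax6 paired-domain site, was found in 0 of 8 against 7.75%, which says only that these letters are not in these windows. The same search covered the 8 α- and β-crystallin genes compared below. There TGCTGA was found in 6, CTTTGT in 4, CATTGT in 3, TGANTCA in 2 and TCACGC in 0, so the words are not particular to the γ-crystallins. The Maf and AP-1 words overlapped in both Crygn, where they began at -68 and -72, and Crygs, where they began at -200 and -204. The 8 promoters held 2 to 10 CpG dinucleotides each, against a median of 12 over all promoters, and their observed-to-expected CpG ratio ran from 0.116 (Crygf) to 0.507 (Cryge), below the median of 0.542 in every gene.

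The lens H3K4me2 list differed among the members. A promoter peak, within 2 kb of a protein-coding transcript start, was called in lens for 4 of 8 genes (Crygc, Crygd, Cryge and Crygn), against 66.8% of all genes. At the starts of Cryga, Crygb, Crygf and Crygs no lens peak was called. In αTN4 cells none of the 8 starts had a region of any kind: 0 of 8 for control H3K4me2 (58.2% of all genes), Pax6 KD H3K4me2 (57.1%), control H3K4me1 (36%), Pax6 KD H3K4me1 (16.8%), control H3K4me3 (49.1%), Pax6 KD H3K4me3 (47.8%), Pol2 (48%) and Pax6 (0.255%). The 4 genes with H3K4me2 at a start in lens and not in control αTN4 cells stand beside 2618 such genes in all, or 11.7%. No member had H3K4me2 at a start in both lens and control cells, against 55.1% of all genes and 5 of the 8 other crystallin genes (Cryaa, Cryab, Cryba2, Cryba4 and Crybb1). Another 2 of those 8, Crybb2 and Crybb3, had it in lens and not in control cells, as the 4 γ-crystallins did.

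**Figure D1:**
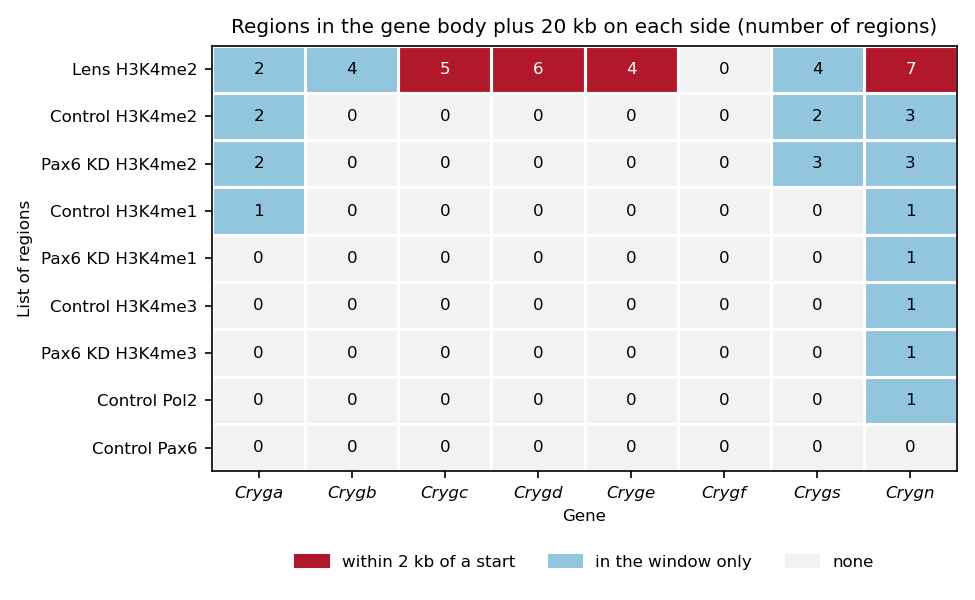
Number of regions of each list (rows) in the window of each γ-crystallin gene (columns). Red marks a region within 2 kb of a protein-coding transcript start, blue a region elsewhere in the window and grey none. Red cells appear for 4 genes in the lens list and in no αTN4 list.

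Within the windows the lists of αTN4 cells were less empty. Lens H3K4me2 lay in the window of 7 of 8 genes (79.4% of all genes), all but Crygf. Control H3K4me2 lay in the windows of 3 genes, Cryga, Crygs and Crygn (78% of all genes), and Pax6 KD H3K4me2 in those of the same 3 (77.4%). H3K4me1 was called for Cryga and Crygn in control cells (63.4%) and for Crygn in Pax6 KD cells (41.2%). H3K4me3 was called only for Crygn among the members, in control (60.9%) and in Pax6 KD cells (59.8%), and so was Pol2 (61.4%). Pax6 was called in 0 of 8 windows against 2.09% of all genes.

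In the 5-gene cluster, which spans 54.8 kb from Cryge to Cryga, lens H3K4me2 was gathered at the Cryge, Crygd and Crygc end. Over Cryge a lens peak covered the start from 65097583 to 65098746 with a fold enrichment over background of 5.003, at the 34.9th percentile of folds in the lens list. Crygd, whose product γD-crystallin is abundant in the lens nucleus, had a stronger peak from 65110349 to 65111304, which began 0.323 kb upstream of its start, with a fold of 7.47 (54.1st percentile). A weaker Crygd peak with a fold of 3.95 (percentile 15.01) lay over the second exon and most of the first. It stopped 9 bases short of the outermost start but covered the other annotated Crygd start. Crygc had a peak over its start, from 65119385 to 65120263, with a fold of 6.29 (47.0th percentile), and a weaker one over its last exon with a fold of 3.95. A further lens peak lay between genes, from 65092827 to 65093101, 4.59 kb beyond the Cryge start in the direction of transcription, with a fold of 6.83. Between the start of Crygc and the region upstream of Cryga, a stretch that contains both Crygb and Cryga, none of the 9 lists had a region. The lens peak nearest to Crygb was that of the Crygc start, 8.60 kb away.

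**Figure D2:**
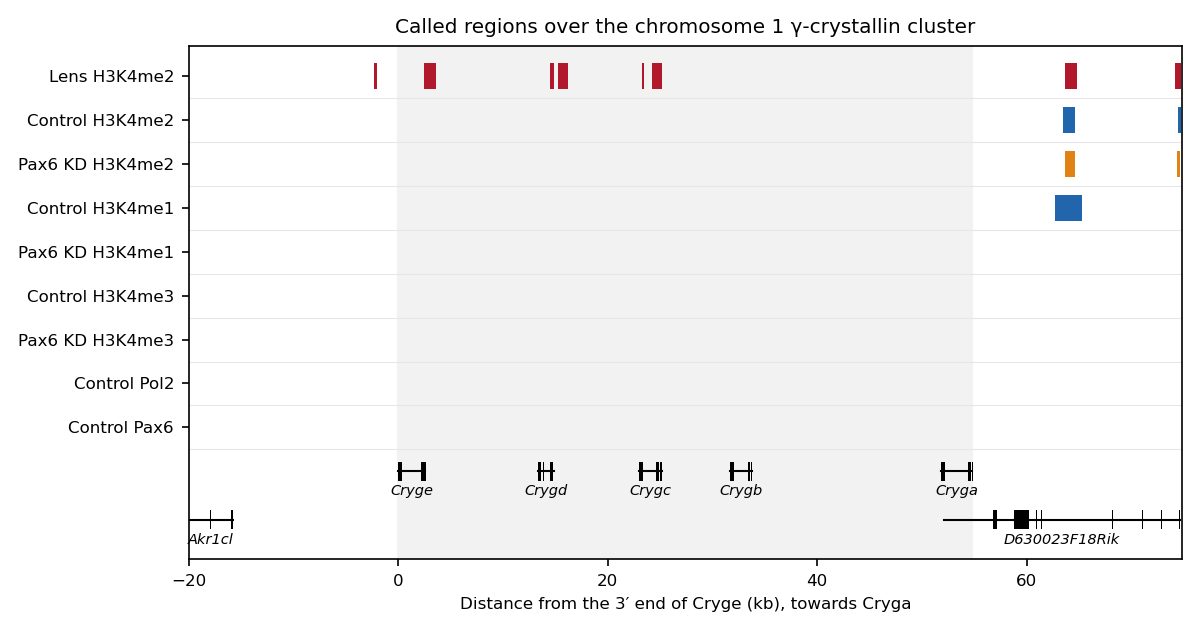
Regions called in each of the 9 lists over the chromosome 1 cluster and 20 kb on each side, in kb from the 3′ end of Cryge; genes are drawn below with exons as boxes, and grey shading marks the cluster. Between the ends of the cluster only the lens list has regions, and at about 64 kb the H3K4me2 peaks of lens, control and Pax6 KD cells coincide.

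Outside the genes, the highest αTN4 fold of the cluster window lay upstream of Cryga, in an intron of D630023F18Rik, a gene of unassigned function of which 1 annotated transcript runs into Cryga exons. There the control H3K4me2 peak (65158549 to 65159749) had a fold of 20.8, at the 93.6th percentile of its list. The Pax6 KD peak (65158751 to 65159747) had a fold of 24.7, at the 95.4th percentile. The lens peak (65158783 to 65159954) had a fold of 7.68, at the 55.0th percentile, and began 8.84 kb upstream of the Cryga start. The 3 peaks shared 965 bases. A control H3K4me1 island, the broad kind of region used for this mark, covered the same site (65157801 to 65160400) with 36 ChIP reads and 27 control-library reads, or 13.8 ChIP reads per kb (95% Poisson interval 9.70 to 19.2, counting error only). No H3K4me1 island was called there in Pax6 KD cells, in which 46.2% of all control islands were kept. The 201 bases centred on the control H3K4me2 summit are shown because this is the only site of the window shared by lens, both αTN4 H3K4me2 lists and H3K4me1. They contain none of the 5 regulator words on either strand, so no letter is capitalised.
D630023F18Rik intron (chr1:65158928-65159128, plus strand): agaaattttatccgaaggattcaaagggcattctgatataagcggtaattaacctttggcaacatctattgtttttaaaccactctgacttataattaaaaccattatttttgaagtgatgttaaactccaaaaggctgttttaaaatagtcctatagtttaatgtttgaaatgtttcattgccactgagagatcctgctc

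At the start of D630023F18Rik itself the order of the percentiles was the other way round. The lens peak reached 13.9 (68.8th percentile), the control peak 7.94 (56.1st percentile) and the Pax6 KD peak 4.86 (22.6th percentile). The other gene with a start in the cluster window, Akr1cl, an aldo-keto reductase relative, had no region in any of the 9 lists at its start. Over the whole 94.82 kb window, lens H3K4me2 covered 6.02% of the bases, against a median of 4.30% over the windows of all genes. Control H3K4me2 covered 1.62% (median 4.90%), Pax6 KD H3K4me2 1.44% (median 4.31%) and control H3K4me1 2.74% (median 5.07%), and the other 5 lists covered none of it.

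Crygf, which lies 823.1 kb beyond Cryga, had no region of any list in its window. Its nearest lens H3K4me2 peak was 248.1 kb away, its nearest control peak 318.3 kb and its nearest Pax6 peak 771.4 kb. Crygf and Cryge thus differed in lens H3K4me2 despite the near identity of their coding and upstream sequences. Whether short reads could be placed was measured by counting how many 36-base words of the mm9 sequence within 2 kb of each start occurred once in the genome. The share was 92.01% for Crygf and 89.8% for Cryge. Over the members it ran from 87.9% (Cryga) to 99.3% (Crygs) with a median of 91.96%, against a median of 97.8% over 1238 chromosome 1 genes, of which the lowest 5% lay under 72.9%. Over the whole windows the share ran from 68.2% (Crygn) to 95.2% (Crygs), with 84.9% for Cryga, 85.1% for Crygb and 86.8% for Crygf. The windows of other genes were not measured in this way. Of the lens peaks, that over the first exons of Crygd had the least unique sequence, with 33.0% of its words found once, followed by the Crygc start peak at 76.2% and the Cryge start peak at 92.4%; the upstream Crygd peak was unique throughout (100%). The treatment of reads with several placements is not given in the sources used here, and its part in the absence of peaks was not tested.

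**Figure D3:**
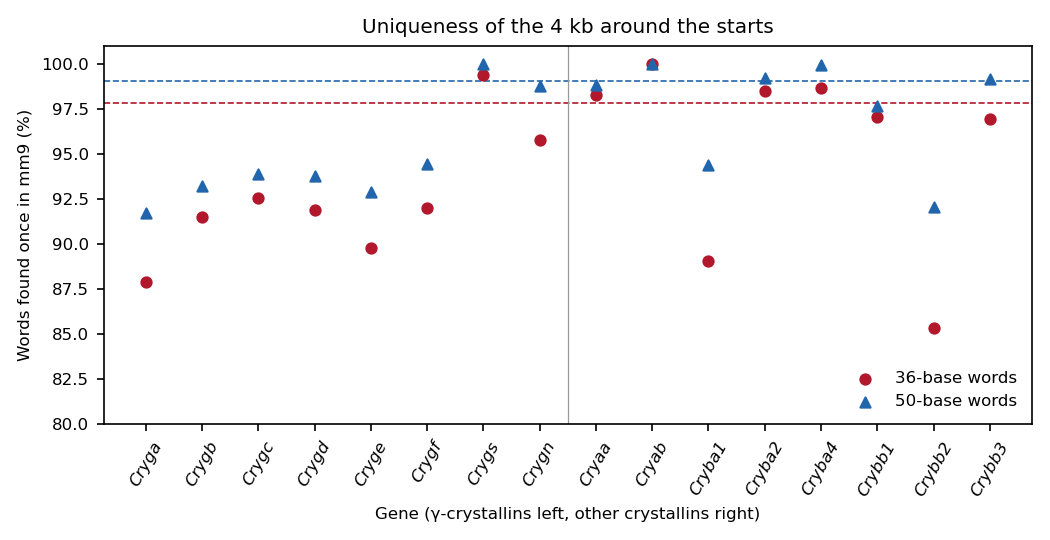
Share of words found once in mm9 within 2 kb of the outermost start of each crystallin gene, for 36-base (circles) and 50-base (triangles) words; dashed lines are the medians of 1238 chromosome 1 genes, and the vertical axis starts at 80%. Cryga to Crygf and Crygn lie below both medians, with Cryga lowest of the γ-crystallins at 87.9%. For 36-base words Crygf has a value within the range of the 5 cluster genes.

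Crygs, on chromosome 16, had no peak at its start, but 2 H3K4me2 sites were called in lens, control and Pax6 KD cells alike. The first lay in the intron next to the first exon. Its fold was 9.74 in lens (22807724 to 22808095, 61.1st percentile), 8.85 in control cells (22807715 to 22808127, 60.4th percentile) and 5.21 in Pax6 KD cells (22807747 to 22807969, 28.5th percentile), and it began 3.39 kb downstream of the start in lens. The Pax6 KD peak is narrower, 223 bases against 413 in control cells, and lies wholly inside the others. These 223 bases are printed as the H3K4me2 sequence that all 3 lists share within the gene, again with none of the 5 regulator words.
Crygs intron (chr16:22807747-22807969, plus strand): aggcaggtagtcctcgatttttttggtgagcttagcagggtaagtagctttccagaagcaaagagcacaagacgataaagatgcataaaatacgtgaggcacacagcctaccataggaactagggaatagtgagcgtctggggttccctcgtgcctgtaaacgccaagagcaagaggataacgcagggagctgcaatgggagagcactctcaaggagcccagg

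The other Crygs site lay beyond the 3′ end of the gene. There the lens peak (22799987 to 22800519) had a fold of 5.03 (36.2nd percentile) and the control peak (22800357 to 22801460) a fold of 7.01 (50.5th percentile). The 2 Pax6 KD peaks had folds of 4.17 and 5.21 (10.8th and 28.5th percentile). Further downstream, 2 weak lens peaks had folds of 3.42 and 3.69, within the lowest 10% of the lens list (5.38th and 9.76th percentile). No H3K4me1, H3K4me3, Pol2 or Pax6 region lay in the Crygs window. The nearest control H3K4me1 island began 26.9 kb upstream and the nearest Pol2 peak 33.0 kb upstream.

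Crygn, on chromosome 5, was the member with the most regions, and those called in αTN4 cells lay at or beyond its 3′ end rather than at its start. At the start, lens H3K4me2 was called from 24262847 to 24264215 with a fold of 4.79 (32.5th percentile), and 2 weaker intronic lens peaks followed with folds of 3.69 and 4.48. At the 3′ end the lens peak (24256643 to 24258133) had a fold of 21.3 (81.9th percentile). The control peak there (24256666 to 24257956) had a fold of 19.5 (91.3rd percentile) and the Pax6 KD peak (24256708 to 24257953) a fold of 16.7 (81.6th percentile). The last exon of Crygn runs from 24256821 to 24257007. H3K4me3 was called over it in control cells (24256727 to 24256965, fold 6.79, 13.9th percentile) and in Pax6 KD cells (24256740 to 24257027, fold 7.14, 20.8th percentile). Pol2 was called over it in control cells (24256685 to 24256948, fold 6.36, 31.8th percentile). All 3 of these narrow peaks thus ranked in the lower part of their lists. The annotation places the start of a short non-coding Crygn transcript at 24257142, inside the H3K4me2 peaks, and the Pol2 peak lies downstream of it over the last exon. The 150 bases before that start are shown, since no other member had Pol2 or H3K4me3 in its window, and they hold TTTGTG, in capitals, but none of TATATA, GGCCCCTTT and TATAAA.
Crygn, before the short transcript (chr5:24257143-24257292, minus strand): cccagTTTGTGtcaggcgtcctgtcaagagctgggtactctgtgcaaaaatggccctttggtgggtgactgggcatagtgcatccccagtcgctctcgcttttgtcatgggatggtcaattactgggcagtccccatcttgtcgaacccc

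Just beyond the 3′ end of Crygn, a further H3K4me2 peak was called with folds of 14.5 in lens, 7.70 in control cells and 4.51 in Pax6 KD cells, at the 69.8th, 54.7th and 17.0th percentile. The next site was called in αTN4 cells only, with folds of 4.72 (control, 27.9th percentile) and 5.21 (Pax6 KD, 28.5th percentile). A control H3K4me1 island covered the latter (24251401 to 24254600) with 67 ChIP and 36 control-library reads, or 20.9 ChIP reads per kb (95% Poisson interval 16.2 to 26.6). The Pax6 KD island there was wider (24249001 to 24255800), with 80 ChIP and 61 control-library reads, or 11.8 per kb (9.33 to 14.6). Because the islands were called separately and differ in width, and the depth of the libraries is unknown, these densities give no direction of change.

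**Figure D4:**
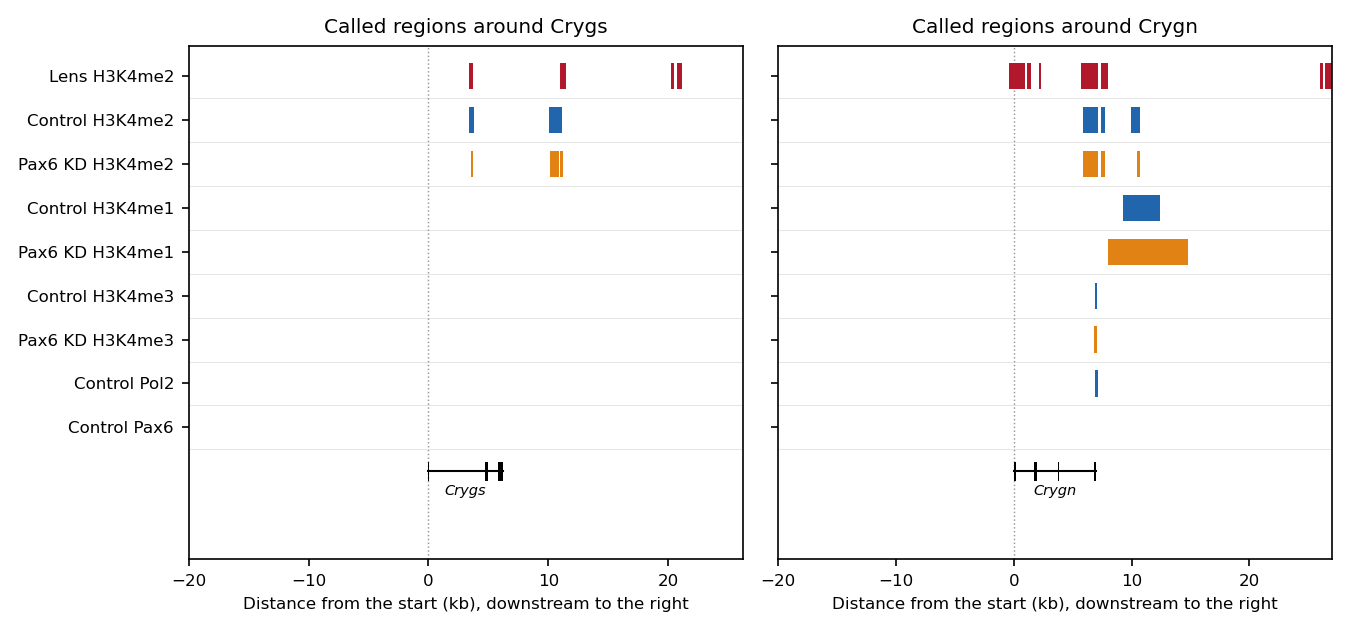
Regions called in each list around Crygs (left) and Crygn (right), in kb from the start of the gene with the direction of transcription to the right; exons are boxes and the dotted line is the start. Both genes carry shared H3K4me2 sites downstream of the start, and the H3K4me3 and Pol2 peaks of Crygn lie at its 3′ end.

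The regions of control cells were then looked for in Pax6 KD cells. Of the 7 control H3K4me2 peaks in the windows all 7 overlapped a Pax6 KD peak (82.5% of all control peaks), and the single control H3K4me3 peak was kept as well (89.9% of all). Of the 2 control H3K4me1 islands 1 was kept (46.2% of all). In rank by fold, 5 of the 7 kept H3K4me2 peaks stood lower in the Pax6 KD list, with changes from -9.68 to -37.7 percentile points, and the median change over the 7 was -22.0 points. Over all 54644 kept peaks the median change was -1.85 points and the 5th to 95th percentiles were -25.9 to 23.4. Below that range were 3 of the 7, namely the peak at the D630023F18Rik start, the Crygs intron peak and the peak just beyond Crygn. In control cells these stood at the 56.1st, 60.4th and 54.7th percentile. The range covers kept peaks of every control rank and was not taken for peaks of like rank. The site upstream of Cryga changed by 1.74 points and the distal Crygn site by 0.57. With 1 library for each condition these changes could not be tested.

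**Figure D5:**
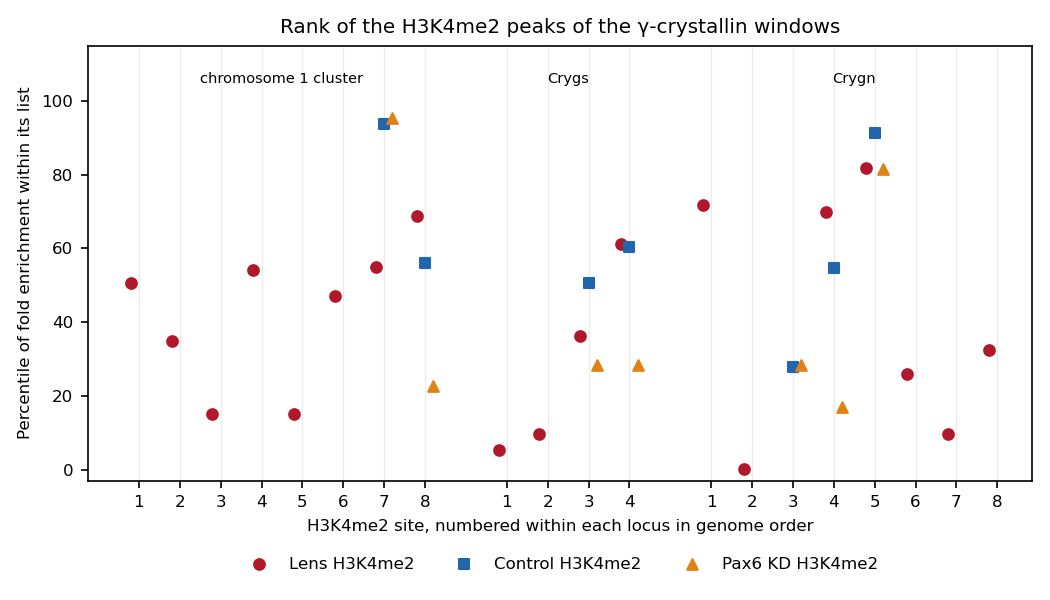
Percentile of fold enrichment within its own list for each H3K4me2 site of the windows, with sites merged over the 3 lists and numbered in genome order; circles are lens, squares control and triangles Pax6 KD cells. Sites with all 3 symbols number 6, and lens alone is present at 13 of the 20 sites.

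Merging the H3K4me2 peaks of the 3 lists gave 20 sites over all windows. Lens alone had 13 of them, 6 were called in all 3 lists, and 1, the distal Crygn site, was called in control and Pax6 KD cells but not in lens. Merged in the same way over the whole genome, 31.6% of 95857 sites were of lens alone, 22.8% were in all 3 lists and 28.9% were in control and Pax6 KD cells only. The patterns with 0 sites in the windows were control alone (10.5% of all sites), Pax6 KD alone (4.62%), lens with control (1.22%) and lens with Pax6 KD (0.3%). In the cluster window 6 sites were of lens alone and 2 were shared, in that of Crygs 2 and 2, and in that of Crygn 5 and 2. The lens-only sites of Crygn included the start peak of its neighbour Wdr86, which reaches into the window with a fold of 15.7. Another lay 1.06 kb upstream of the Wdr86 start, with a fold of 2.60 at the 0.28th percentile of the lens list. Both count among the 13 sites of lens alone. The site upstream of Cryga and the 3′ end of Crygn were the only ones above the 90th percentile in control cells.

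Pax6 was not called in the window of any member. The nearest Pax6 peak to the cluster lay 51.4 kb from it on the Cryga side, between genes (65201384 to 65201655), with a fold of 6.05 and a −log10 q of 10.9. It overlapped 2 control H3K4me2 peaks and the H3K4me1 islands of control and Pax6 KD cells, and no H3K4me2 peak of Pax6 KD cells or of lens. It lay 103.7 kb upstream of the Cryge start. The nearest Pax6 peak to Crygn was 1339.4 kb away and that to Crygs 34870.9 kb. The αTN4 list holds 504 Pax6 peaks in all, and the Pax6 peaks of lens were not analysed here.

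The nearest relatives by function were treated the same way for comparison. Of the 8 other crystallin genes, 7 had lens H3K4me2 at a start (all but Cryba1), with folds from 3.69 (Crybb2) to 9.22 (Cryab), and those of the 4 γ-crystallins ran from 4.79 (Crygn) to 7.47 (Crygd). H3K4me3 and Pol2 at a start in control cells were found for Cryaa and Cryab of these 8, which encode the α-crystallins. Lens H3K4me2 lay at the starts of 7 of 9 fiber marker genes and of 7 of 7 lens epithelium marker genes, against 66.8% of all genes, so that this count alone tells little about the lens label. In control αTN4 cells H3K4me2 was present at 2 of the 9 fiber genes (Gja3 and Lctl) and at 4 of the 7 epithelium genes (Pax6, Gja1, Itga6 and Cryab), against 58.2% of all genes. Crygc, Crygd, Cryge and Crygn had a lens H3K4me2 peak and nothing else at a start. Genes with this pattern numbered 2276 beside the members, or 10.2% of all genes with the members included. Crybb2 and Crybb3 of the other crystallin genes were among these, so the pattern is not particular to the γ-crystallins. Those with lens folds nearest to the members' median of 5.65 were Omg, BC048943, Otop3, Gm336 and 2310007L24Rik. The pattern of Cryga, Crygb, Crygf and Crygs, with no region at a start, was shared by 6248 other genes, or 27.98% of all genes with the members included.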

How the data were processed

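ChIP-seq of newborn lens, control αTN4 and Pax6 KD αTN4 cells was available as 9 deposited lists of regions, each from 1 library. Peak names in the control H3K4me2 list hint at pooled replicates, which no source states. RNA-seq and input libraries, and lens Pax6, were not analysed here. The antibody labels of the Pax6 and Pol2 libraries are exchanged relative to their titles, and the titles were followed. The list titled Pol2 holds 17204 regions and reaches 48% of all gene starts, and that titled Pax6 holds 504 regions and reaches 0.255%. Per the study's methods, Bowtie was used by the authors for alignment to mm9, and they called Pax6, Pol2, H3K4me2 and H3K4me3 peaks with MACS2 and H3K4me1 islands with SICER, at default settings. The deposited MACS2 lists give a fold enrichment (a ratio over background), a −log10 p and a −log10 q. The deposited SICER lists give the count of ChIP and of control-library reads, a fold, a p-value and an FDR for islands of 200-base windows; the control library is not named. Between lists, folds were compared only by their percentiles within each list.

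All regions fitted the chromosome names and lengths of mm9 (NCBIM37). A promoter is 2 kb on each side of a protein-coding start, an overlap is at least 1 bp, and a control region was kept when a Pax6 KD region of that mark overlapped it. Background shares are over 22342 genes. All 8 genes were named, with other genes named only from lists, from starts in the windows or from the same presence pattern. Wdr86 was the exception, named because its start peak reaches into the Crygn window. The lists were other crystallins, lens regulators, lens fiber, lens epithelium, endothelium, macrophage, retina, pigment epithelium and cornea, and some genes of these lists are not reported here. The members and lists were chosen with earlier results of these data known. The words shared upstream and the merged H3K4me2 sites were added after the data were seen. Counting of overlaps and words was tested on simulated data. Alternatives covered the promoter and window size, a stricter threshold (−log10 q of at least 5, FDR of at most 1e-06), the overlap, the outermost start and 50-base words. Python 3.11.15, pandas 2.3.3, pysam 0.24.0, Biopython 1.88, numba 0.67.0, matplotlib 3.10.9 and samtools 1.23.1 were used.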

Additional observations from a re-analysis of the deposited data

How the results depend on the processing

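No result has replicate error, and the depth behind the MACS2 lists is unknown, so an uncalled region is not shown to lack the mark. Lens H3K4me2 at the starts of Crygc, Crygd, Cryge and Crygn held under all 5 alternatives, and with 5 kb on each side Crygs joined them (5 genes). That alternative also gave 1 gene, Crygs, for control H3K4me2 and 1 for Pax6 KD H3K4me2, in place of 0. All other counts at a start, 43 of 45, stayed within 1.5 times their value. In the windows, 9 of 36 counts moved further, all by the size of the window. With 50 kb on each side, control and Pax6 KD H3K4me2 reached 7 genes each, control H3K4me1 reached 6, and Pax6 KD H3K4me1, control H3K4me3, Pax6 KD H3K4me3 and Pol2 reached 2 each. With the gene body only, control and Pax6 KD H3K4me1 reached 0 genes. Pax6 stayed at 0 in every alternative. The covered share of lens H3K4me2 in the cluster window was 3.68% with 50 kb, against a median of 3.98% over all genes, so that its place above the median held only for the narrower windows. The number of control regions kept after knockdown was 6 of 7 for H3K4me2 with at least 50% of the region covered and did not change otherwise. With 50-base words the median unique share was 93.8%. No paired analysis was possible because no result comes from a test and each list stands alone.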

Other observations

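Most of the genes listed here as regulators of γ-crystallin genes had H3K4me2, H3K4me3 or Pol2 at their starts in αTN4 cells, where the γ-crystallin starts had none. Of the 10 regulator genes found in the annotation out of 11 listed (Sox1 was not found), all 10 had lens H3K4me2 at a start (66.8% of all genes), and 9 had it in control αTN4 cells (all but Foxe3; 58.2%), with the same 9 in Pax6 KD cells (57.1%). In control cells 9 had H3K4me3 (49.1% of all genes) and 8 had Pol2 (48%), the latter at Sox2, Maf, Pax6, Prox1, Six3, Hsf4, Rarb and Rxrb. H3K4me1 lay at 4 of the 10 in control cells (36% of all genes) and at 2 in Pax6 KD cells (16.8%), near the shares of all genes. The lens folds at Maf, Prox1 and Hsf4, factors of fiber differentiation, were 22.1, 20.01 and 20.5, and that at Pax6 was 33.2.

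Among the fiber genes, Mip, Bfsp1, Bfsp2 and Lim2, which encode a water channel, the beaded filament proteins and a membrane protein, had lens H3K4me2 at a start with folds of 6.06, 9.74, 9.87 and 8.35, and no H3K4me2 there in control cells. Birc7 and Grifin shared this H3K4me2 pattern, with folds of 4.21 and 6.58, but both had a control H3K4me1 island at a start. Mip, Bfsp1, Bfsp2 and Lim2 had no αTN4 region of any kind there. Of the other 3, Gja3 had H3K4me2 in lens, control and Pax6 KD cells, Lctl had it in control cells and not in lens, and Dnase2b had no region. For markers of other cell types, lens H3K4me2 lay at the starts of 3 of 5 endothelial genes (Cdh5, Kdr and Tek) and 0 of 4 macrophage genes. It lay at 2 of 4 retinal genes (Crx and Nrl), 1 of 4 pigment epithelium genes (Mitf) and 0 of 4 corneal genes, against 66.8% of all genes. In control αTN4 cells H3K4me2 lay at 2 endothelial genes (Pecam1 and Tek), 0 macrophage and 0 retinal genes. It also lay there at 1 pigment epithelium gene (Mitf) and 2 corneal genes (Krt14 and Aldh3a1), against 58.2% of all genes. The part of other cell types in the lens peaks of the γ-crystallins was not tested.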
